A study of Mus musculus with 9 samples.

Results

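The Polycomb genes Ezh1, Ezh2, Eed, Suz12, Bmi1, Cbx2, Cbx7, Cbx8 and Rnf2 were followed across 2 lines of mouse embryonic fibroblasts in which the Ink4a locus was found in opposite states. All probe sets annotated with these 9 symbols were taken, which gave 27 of the 45037 non-control probe sets of the array. Of these, 15 probe sets of 8 genes had a mean signal of at least 100 over the 9 arrays and were tested, and the other 12, including all 3 of Cbx7, were dimmer and are described only.

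Total RNA was measured on 9 Affymetrix mouse arrays, 1 per sample. Both lines arose spontaneously by immortalisation of fibroblasts taken from E13.5 mouse embryos, 1 line from Suv420h1 -/- embryos and the other from wild-type embryos. Suv420h1 (gene symbol Kmt5b) is an enzyme that methylates histone H4. The null line was measured with a Suv420h1-GFP fusion protein added back (1 array) and without it (2 arrays, untransduced and with GFP), and the wild-type line carried lentiviral PREX2 truncated by a stop codon, K278*, E824* or Q1430* (3 arrays), full-length PREX2 (1 array), or a control vector (GFP or LacZ, 2 arrays). PREX2 activates the GTPase Rac. Each construct has 1 array per line, so the p-values cover a spread that mixes differences between constructs with array-to-array spread. Separate cultures are not stated, so the array-to-array part may be technical. In such bulk RNA fewer expressing cells and less RNA per cell cannot be told apart. Each genotype is a single line, so genotype and line cannot be told apart.

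Polycomb proteins keep genes silent through 2 complexes. PRC2 methylates histone H3 through Ezh2 or its paralogue Ezh1, held together with the scaffold Suz12 and with Eed, which binds the methyl mark and stimulates the enzyme. PRC1 contains the ubiquitin ligase Rnf2 (Ring1B), a partner such as Bmi1, and a Cbx protein whose chromodomain can bind methylated histone H3. In cultured fibroblasts the Ink4a-Arf-Ink4b locus, which encodes the cell-cycle inhibitors of Cdkn2a and Cdkn2b, is a classical target of both complexes, and loss of Bmi1, Ezh2, Cbx7 or Cbx8 is known to release it.

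Some facts of the whole series bear on these values. The lines separated on the first principal component (69.6% of variance). The second (17.8%) set the wild-type GFP array (59.6) and the K278* array (19.4) apart from the other wild-type-line arrays (-30.7 to -3.82), so the results below are also given without those 2 arrays, an alternative chosen after seeing the data. A Kmt5b probe set with a mean signal of 117.5 read 150.3 on the add-back array, 8.85 and 17.3 on the other null-line arrays, and 117.9 to 182 in the wild-type line, and the brightest, at 294.6 to 469.6 on all arrays, did not separate the lines. The 2 other tested Kmt5b probe sets went in opposite directions, one at 462.1 to 553.7 in the null line and 221.4 to 338.1 in the wild-type line, the other at 66.2 to 101.5 in the null line and 102.6 to 153.4 in the wild-type line. Which part of the transcript each one reads was not known, so only the first tracks the labels. All 12 fibroblast markers were tested, and their summed signal was 144900 to 156200 in the null line and 159300 to 199100 in the wild-type line. Of these 0 rose and 2 fell between all arrays, beside 19.5% higher and 18.1% lower over all probe sets. They were the transcription factor Prrx1 and the surface marker Thy1. Thy1, at a mean of 15.2 in the null line and 2873 in the wild-type line, reached the filter only through the wild-type line. It could therefore only fall. Of 27 markers of epithelial, macrophage, endothelial, neural, muscle and germ cells 9 were tested. Between all arrays 0 rose and 6 fell in the null line, beside the same shares of all probe sets. Their summed signals in the null line against the wild-type line were 208.6 to 403.8 against 1043 to 2180 for 4 neural markers, 344.1 to 388.8 against 520.4 to 741.4 for 5 macrophage markers, 470.6 to 558.7 against 584.2 to 641.4 for 5 epithelial markers and 119 to 228.6 against 197.8 to 603.6 for 5 endothelial markers. In the null line against the wild-type line they were 183.1 to 277.7 against 233.1 to 382.5 for 4 muscle markers and 109.4 to 130.9 against 43.4 to 103.5 for 4 germ-line markers. In the null line Tubb3 read 11.2 to 52.2, Tek 43.4 to 91.3 and Krt19 46.65 to 89.15. Those markers reached the filter only through the wild-type line, so they could only fall. The part of these cell types in the results was not tested.

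RNA of the locus that defines the contrast was high in the null line and close to background in the wild-type line. Cdkn2a read 3846 with Suv420h1 added back and 3363 and 4308 without it, against 0.925, 1.90 and 3.76 with K278*, E824* and Q1430*, 6.25 with full-length PREX2 and 15.9 and 4.21 with GFP and LacZ. Cdkn2b read 1182 with add-back and 1565 and 1741 without it, and 2.05 to 7.17 over the 6 wild-type-line arrays. No array of either line came near the other. The log2 differences were 7.0 and 5.67, sizes that depend on the offset of 25 added before taking logs because the wild-type values lie below it. Both genes reached the filter only through the null line, so they had to differ and no test is given. The add-back array thus had high RNA of the locus as well. RNA levels cannot tell a silent locus from one lost from the genome, and DNA was not measured on these arrays.

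The lines were compared over all their arrays, 3 against 6, and over the null line without add-back against control vector, 2 against 2, with limma fitted on all probe sets and adjusted by the Benjamini-Hochberg method. Against that background the Polycomb genes differed little. Of the 15 tested probe sets 1, that of Cbx8, passed between all arrays of the lines, where 37.6% of the 19090 probe sets tested passed. The same 1 of 15 had an unadjusted p under 0.05 (47.4% of all) and groups that did not overlap (40.5% of all). The median log2 difference of the 15 was -0.14, beside 0.00 over all probe sets. Suz12 alone gives 6 of the 15, so the medians weight that gene most. Counted by main probe set, 1 of 8 genes passed and 1 did not overlap. In the null line without add-back against control vector the same probe set passed, where 19.7% of all did. There 2 had an unadjusted p under 0.05 (34.2% of all), 10 did not overlap (60.6% of all), and the medians were -0.26 and 0.00. By main probe set, 1 of 8 genes passed and 4 did not overlap. For the other 14 probe sets the 95% intervals of the difference between all arrays ran from -0.80 to 0.90 on the log2 scale, so each lay within 2-fold either way. For the 2 against 2 comparison, 13 of 14 did, with bounds from -1.11 to 0.88.

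**Figure D1:**
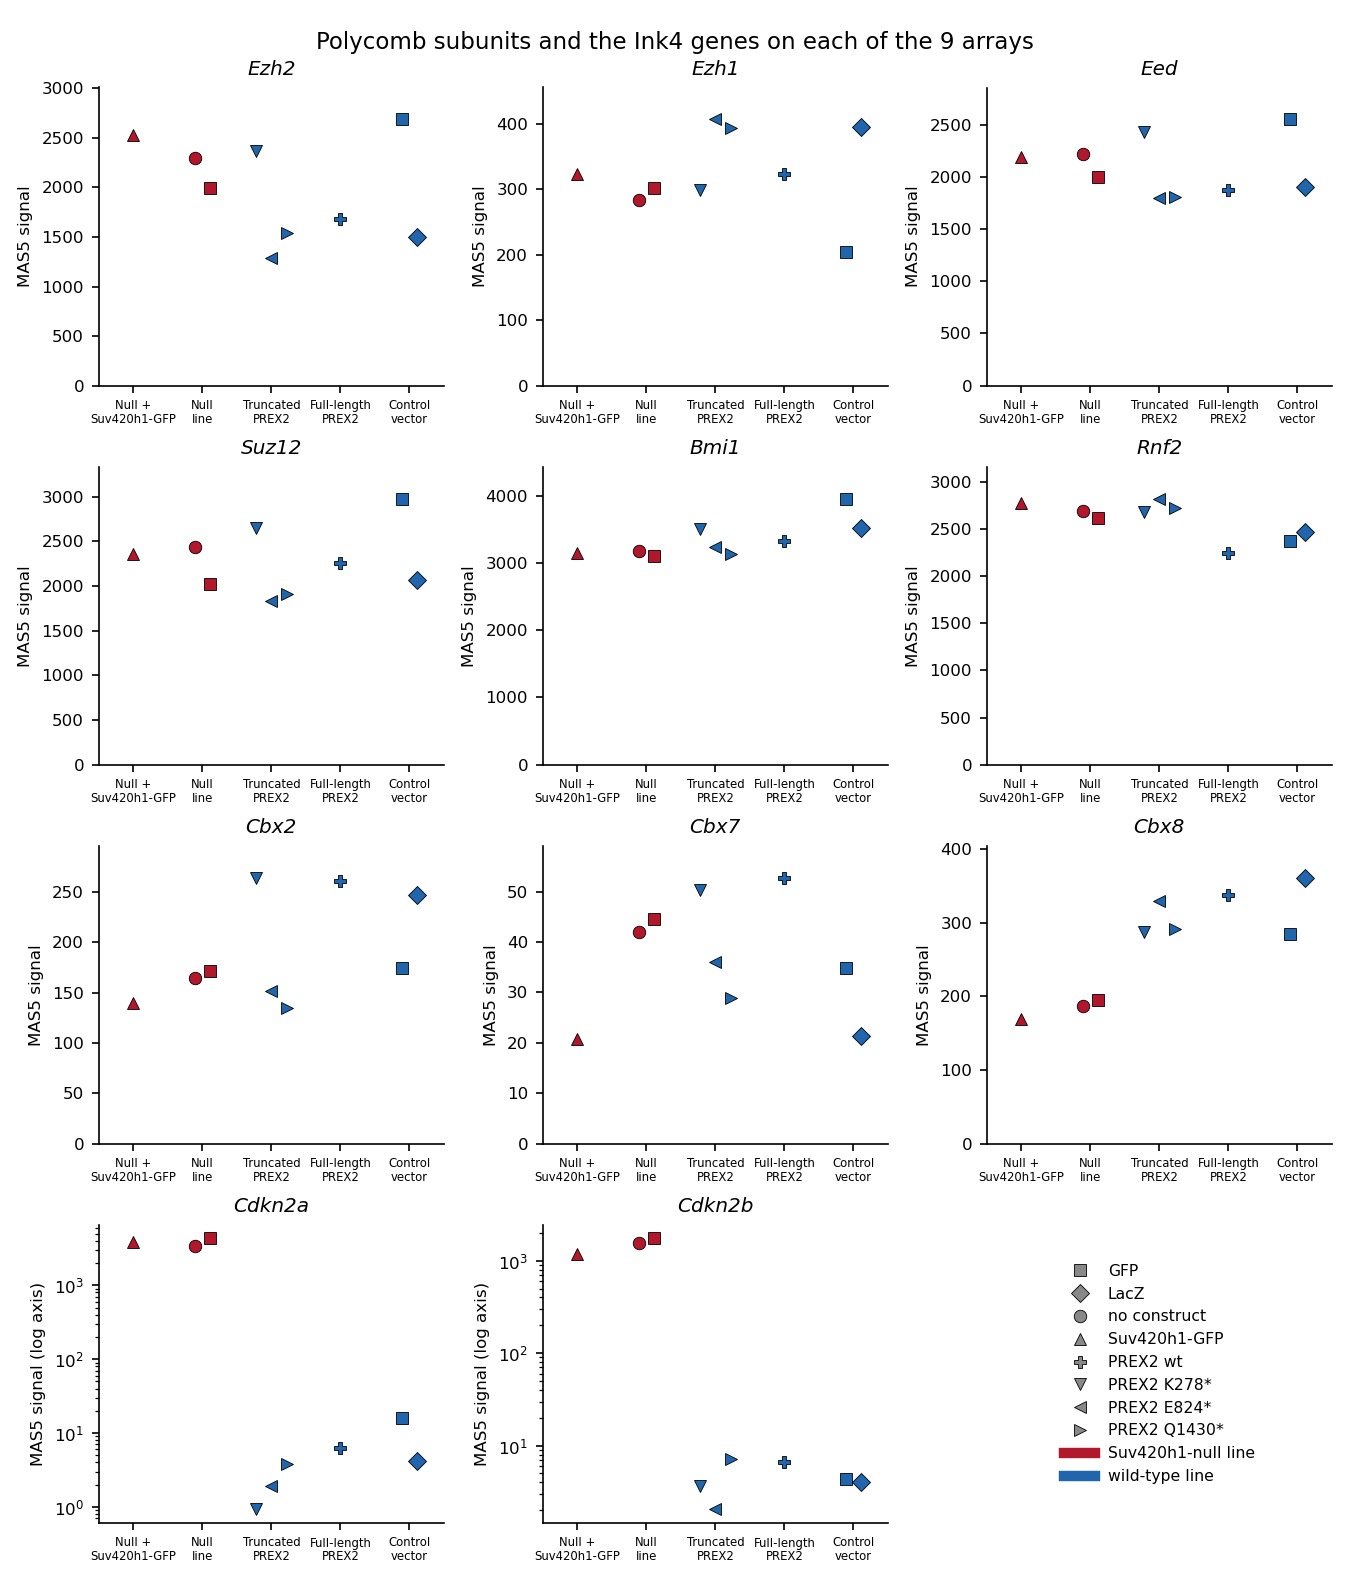
MAS5 signal (linear axis; log axis for Cdkn2a and Cdkn2b) of the brightest probe set of each gene on each of the 9 arrays, 1 point per array, with the construct given by the symbol and the line by the colour. Cbx8 lies lower on all 3 null-line arrays (168.8 to 194.4) than on all 6 wild-type-line arrays (285.1 to 360.9), while the other Polycomb genes overlap between the lines and Cdkn2a and Cdkn2b are far apart.

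Cbx8, a chromodomain subunit of PRC1, fell in the null line. Its signal was 168.8 with Suv420h1 added back and 186.3 and 194.4 without it, and in the wild-type line 287.3, 328.7 and 291.4 with K278*, E824* and Q1430*, 337.4 with full-length PREX2 and 285.1 and 360.9 with GFP and LacZ. The groups did not overlap. The mean was 183.1 in the null line and 315.1 in the wild-type line, a log2 change of -0.71 (SE 0.123, 3 against 6 arrays, adjusted p = 0.00407 in limma). That call held in all 17 alternatives run, with changes from -0.81 to -0.55. In the null line without add-back against control vector the change was -0.68 (SE 0.174, 2 against 2 arrays, adjusted p = 0.0328), a call that ended in 7 of 17 alternatives, among them without either null-line array (-0.66 and -0.71), without LacZ (-0.53), and without the E824* or Q1430* array, which only enter the shared variance. The second Cbx8 probe set read 3.44 to 25.2 and was not tested.

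Cbx2, the chromodomain paralogue encoded next to Cbx8 on chromosome 11 in the RefSeq annotation, was dimmer and scattered. Its tested probe set read 139.8 with add-back and 164.6 and 171.0 without it. In the wild-type line it read 263.9, 151.2 and 134.2 with K278*, E824* and Q1430*, 260.8 with full-length PREX2 and 173.9 and 247.0 with GFP and LacZ. The wild-type arrays thus spanned both sides of the null-line range, and the difference of -0.29 (SE 0.219, adjusted p = 0.331) did not pass. The other Cbx2 probe set, under the filter, read 3.34, 7.51 and 19.7 in the null line and 22 to 47.4 in the wild-type line, without overlap but near background; fitted without the filter it was at -0.65 (SE 0.201, adjusted p = 0.0616).

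Cbx7, the chromodomain subunit best known as a repressor of this locus, was dim on these arrays. Its 3 probe sets had mean signals of 36.8, 36.5 and 3.05, below the median signal of every array (56.4 to 68.9). The first read 20.7 with add-back, 42.0 and 44.6 without it, and 21.3 to 52.8 in the wild-type line. The second read 10.4 with add-back and 23.5 and 26.4 without it, against 43.9, 7.10 and 71.5 with K278*, E824* and Q1430*, 49.6 with full-length PREX2 and 4.85 and 91.5 with GFP and LacZ, so it was above those medians on the LacZ and Q1430* arrays only. Fitted without the filter, the log2 differences between the lines were -0.04, -0.47 and 0.11 with adjusted p between 0.526 and 0.928. The probe sets did not separate the lines.

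Rnf2, the catalytic subunit of PRC1, was steady over the 9 arrays. Its brighter probe set read 2777 with add-back and 2692 and 2614 without it, against 2683, 2824 and 2719 with K278*, E824* and Q1430*, 2245 with full-length PREX2 and 2374 and 2466 with GFP and LacZ. The lines overlapped and differed by 0.08 (SE 0.077, 95% interval -0.10 to 0.26, adjusted p = 0.438). The second tested probe set pointed the other way, at -0.19 (SE 0.094, adjusted p = 0.152), and in the 2 against 2 comparison at -0.33 (SE 0.133, unadjusted p = 0.0381, adjusted p = 0.122). The other 3 probe sets annotated to Rnf2 read between 3.33 and 32.0 on all arrays.

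Bmi1, the PRC1 subunit whose loss in mouse fibroblasts is the classical way to release Ink4a and Arf, was present in both lines. Its brighter probe set read 3154 with add-back and 3175 and 3110 without it, and 3500, 3233 and 3128 with the truncated constructs, 3324 with full-length PREX2 and 3958 and 3526 with GFP and LacZ. The null-line values lay at the lower end of the wild-type range. The differences at its 2 probe sets were -0.13 (SE 0.084, 95% interval -0.32 to 0.07, adjusted p = 0.277) and -0.14 (SE 0.080, adjusted p = 0.217) between all arrays. Against control vector alone they were -0.25 (SE 0.119, adjusted p = 0.188) and -0.26 (SE 0.113, adjusted p = 0.148), with no overlap between the 2 and 2 arrays, as for the majority of all probe sets.

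**Figure D2:**
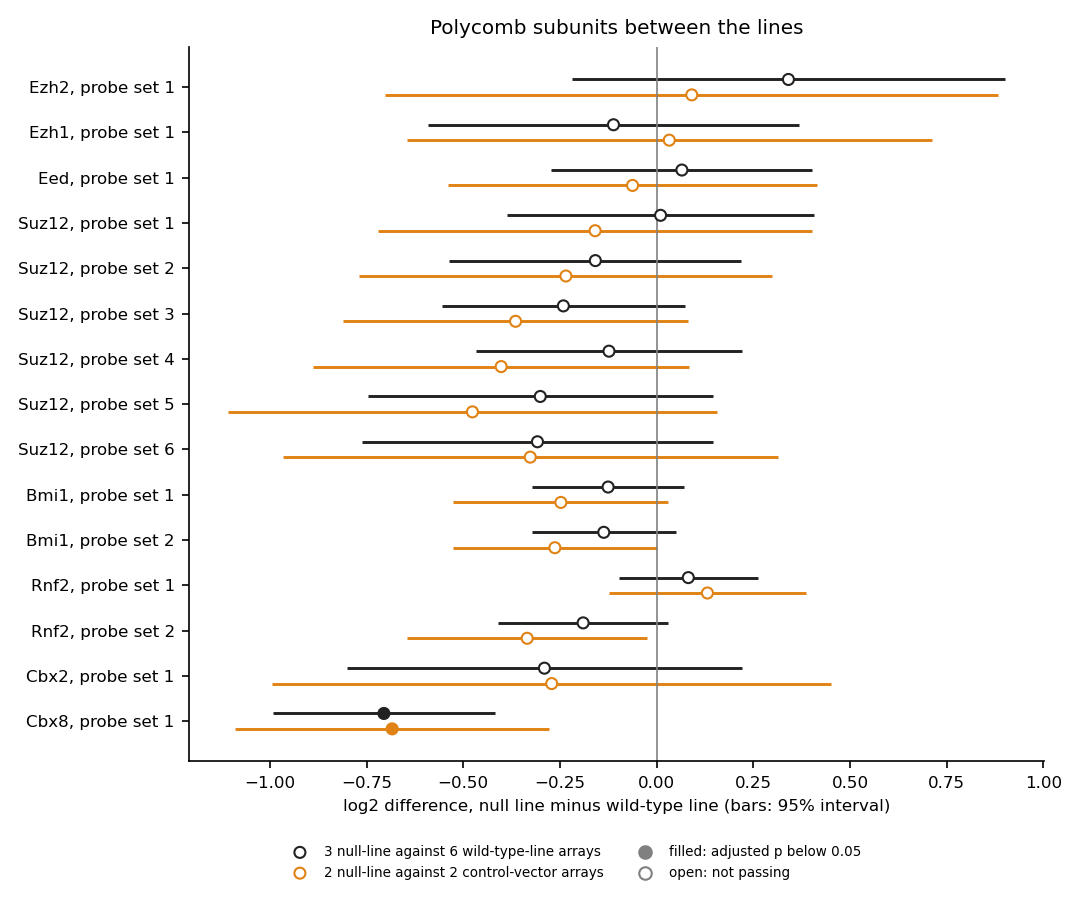
Log2 difference between the null and wild-type lines for the 15 tested probe sets, with probe sets of a gene numbered from the brightest and bars giving 95% intervals. Filled points passed at an adjusted p below 0.05, which only the Cbx8 probe set did, in the comparison of all arrays (-0.71) and in that of 2 against 2 arrays (-0.68).

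In PRC2 the spread within the wild-type line was larger than the difference between the lines. Ezh2, the main methyltransferase of dividing cells, read 2527 with Suv420h1 added back and 2300 and 1991 without it. In the wild-type line it read 2367, 1289 and 1542 with K278*, E824* and Q1430*, 1678 with full-length PREX2 and 2687 and 1499 with GFP and LacZ. The GFP and K278* arrays reached the null-line values and the other 4 lay below them. Between all arrays the difference was 0.34 (SE 0.240, 95% interval -0.22 to 0.90, adjusted p = 0.299), and against control vector 0.09 (SE 0.339, adjusted p = 0.876). Without the GFP and K278* arrays, its highest pair in the wild-type line, the difference was 0.59. Leaving out that pair had to raise the difference, so no p is given.

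Ezh1, the paralogue with weaker methyltransferase activity that is known to predominate in non-dividing cells, was ordered the other way. It read 322.9 with add-back and 283.1 and 301.8 without it, against 299.1, 406.3 and 392.7 with K278*, E824* and Q1430*, 322.4 with full-length PREX2 and 204.6 and 394.2 with GFP and LacZ. GFP was the lowest of the 9 arrays and K278* the next lowest of the wild-type line. The lines differed by -0.11 (SE 0.205, 95% interval -0.59 to 0.37, adjusted p = 0.702). Without GFP and K278* the difference was -0.30, and leaving out the lowest pair of the wild-type line had to lower it. A second Ezh1 probe set, just under the filter at a mean of 94.1, read 55.1 with add-back, 70.5 and 47.0 without it, and 84.8 to 159 in the wild-type line, with no overlap. Fitted without the filter it was at -0.72 (SE 0.221, adjusted p = 0.0613). The 2 brighter Ezh1 probe sets thus gave different sizes, and the remaining pair read 4.75 to 32.3.

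Eed and the brightest Suz12 probe set shared with Ezh2 the highest pair of wild-type-line arrays, GFP and K278*, and the lowest, E824*, while the order of the other arrays differed. Eed read 2190 with add-back and 2217 and 2003 without it, and 2433, 1796 and 1807 with K278*, E824* and Q1430*, 1877 with full-length PREX2 and 2550 and 1900 with GFP and LacZ. The lines differed by 0.07 (SE 0.144, 95% interval -0.27 to 0.40, adjusted p = 0.753). Without GFP and K278* the difference was 0.21, and leaving out the highest pair of the wild-type line had to raise it. A second Eed probe set read 23.0 to 44.2 and was not tested. The brightest of 6 Suz12 probe sets read 2356 with add-back and 2442 and 2017 without it, and 2654, 1833 and 1906 with the truncated constructs in the same order, 2261 with full-length PREX2 and 2979 and 2066 with GFP and LacZ. Its difference was 0.01 (SE 0.170, adjusted p = 0.969), and the other 5, which read the same gene and are no replicates of it, were between -0.31 and -0.12. None of the 6 passed.

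Without the wild-type GFP and K278* arrays, 5 of the 15 probe sets passed between all remaining arrays of the lines, where 59.1% of all probe sets did. Ezh2 and Eed were then higher and Ezh1, Cbx8 and the second Rnf2 probe set (-0.20) lower in the null line. Within the wild-type line the pair was highest for Ezh2 and Eed and lowest for Ezh1 and Cbx8. Leaving it out therefore had to enlarge these differences. The pair was also chosen after the values were seen, so these calls are no test. In the null line without add-back against the LacZ array alone, 3 passed, Ezh2 (0.51), Cbx8 and the second Rnf2 probe set (-0.38), where 37% of all did. The E2F-linked list holds 20 genes of DNA replication and the G1/S step, of which 18 were tested. With all arrays 0 of them rose and 1 fell (median -0.02), and without the pair 8 rose and 1 fell (median 0.24). In the wild-type line the pair was highest for 18 of these 18 genes, so leaving it out had to raise their differences.

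**Figure D3:**
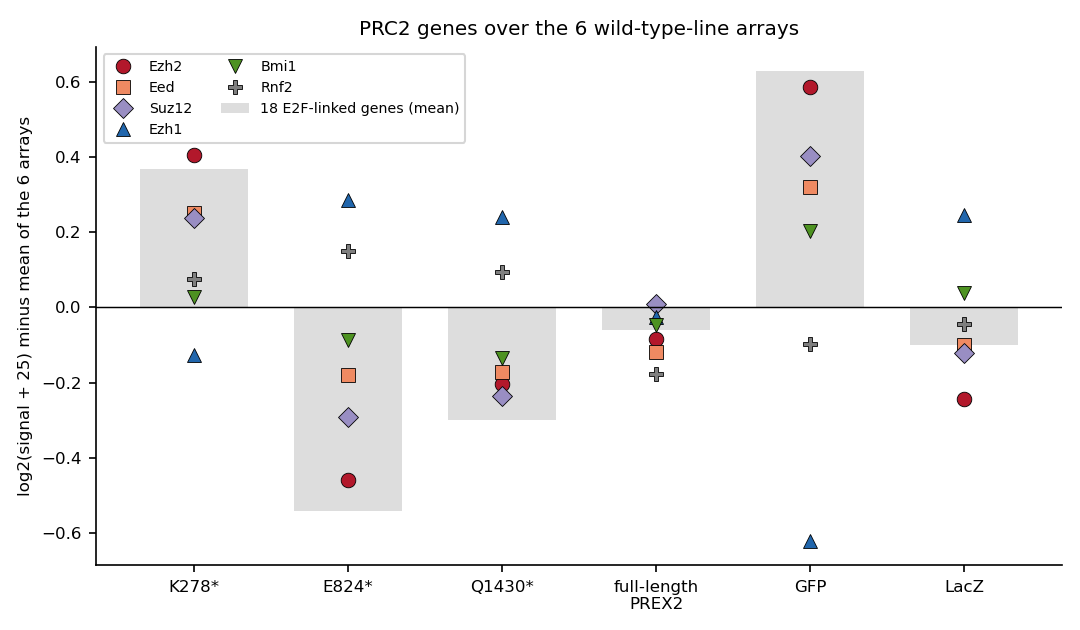
Log2(signal + 25) on the 6 wild-type-line arrays, minus the mean of those 6, for the brightest probe set of 6 Polycomb genes (points) and the mean of 18 E2F-linked genes (grey bars). Ezh2, Eed, Suz12 and the E2F-linked mean are highest with GFP and K278* and Ezh1 is lowest there; Bmi1 and Rnf2 vary less.

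Within the wild-type line, the GFP and K278* arrays were the highest pair at 7 of the 8 tested probe sets of Ezh2, Eed and Suz12, a state found at 22.2% of all tested probe sets. Suz12 gives 6 of the 8, with the pair highest at 5, so the count mostly repeats 1 gene. The pair was picked from the second principal component of these same arrays, so the count is a description only. The same pair was highest for 18 of 18 E2F-linked genes. The mean log2 level of that list was 11.3 with add-back and 11.4 and 11.1 in the null line without it, against 11.6, 10.6 and 10.9 with K278*, E824* and Q1430*, 11.1 with full-length PREX2 and 11.8 and 11.1 with GFP and LacZ. Highest over lowest signal in the wild-type line was 2.08 for Ezh2, 1.99 for Ezh1, 1.63 for Suz12 and 1.42 for Eed, and for PRC1 it was 1.97 for Cbx2 and 1.26 or 1.27 for the main probe sets of Bmi1, Rnf2 and Cbx8. The part of proliferation in the order of these PRC2 genes was not tested.

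The 250 bases upstream of the start of Ezh2, Eed and Suz12 are shown because these genes and the E2F-linked list shared their highest pair of arrays within the wild-type line. They come from RefSeq (build GRCm38.p6), which held a window for 8 of the 9 genes, all but Cbx2. Capitals mark matches on either strand to 3 motifs of cell-cycle promoters: the E2F core (TTCGCGC or TTGGCGC or TTCCCGC or TTGCCGC), the CCAAT box (CCAAT) and the CHR element (TTTGAA). Ezh2 is at chr6:47595031-47595280 on the minus strand, Eed at chr7:89980977-89981226 on the minus strand, and Suz12 at chr11:79992856-79993105 on the plus strand. The annotated Ezh2 gene extends to 47595270, so its window lies mostly inside the gene, upstream of the start used. The Cbx7 window, not shown, lies wholly inside its annotated gene.
Ezh2: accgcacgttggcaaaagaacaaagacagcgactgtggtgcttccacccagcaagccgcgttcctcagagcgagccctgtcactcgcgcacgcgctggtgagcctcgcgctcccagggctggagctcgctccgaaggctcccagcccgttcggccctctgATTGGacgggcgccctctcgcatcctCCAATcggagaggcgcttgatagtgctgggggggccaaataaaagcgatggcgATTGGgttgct
Eed: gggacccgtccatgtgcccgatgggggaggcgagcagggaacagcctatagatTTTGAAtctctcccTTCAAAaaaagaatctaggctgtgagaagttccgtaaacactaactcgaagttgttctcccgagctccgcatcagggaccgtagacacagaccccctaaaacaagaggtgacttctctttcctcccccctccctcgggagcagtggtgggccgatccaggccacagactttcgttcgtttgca
Suz12: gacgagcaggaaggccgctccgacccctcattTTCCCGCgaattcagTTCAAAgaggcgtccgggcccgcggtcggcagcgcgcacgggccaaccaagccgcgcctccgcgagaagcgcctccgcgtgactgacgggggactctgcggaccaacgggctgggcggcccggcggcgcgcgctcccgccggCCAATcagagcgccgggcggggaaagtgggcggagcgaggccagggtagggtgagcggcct
The Ezh2 window held 3 CCAAT matches, that of Eed 2 CHR matches, and that of Suz12 1 match to each motif, with no overlap between matches. Among 32851 RefSeq windows of the same length 33.8% held a CCAAT match, 16.0% a CHR match and 7.89% an E2F match. The Ezh1, Bmi1 and Rnf2 windows held 0 matches to any of them, Cbx8 2 CCAAT matches and Cbx7 1 CCAAT and 1 CHR match. These are matches of letters and name no bound factor.

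The add-back of Suv420h1 was compared with the null line without it, 1 array against 2. None of the 15 probe sets passed in limma, nor did any of the 19090 (0% called), and 0 of the 15 had an unadjusted p under 0.05, against 621 of all (3.25%). In 10 of 15 the groups did not overlap, against 71.9% of all. The changes ran from -0.32 to 0.38, both at Suz12 probe sets. The median, which counts Suz12 by its 6 probe sets, was 0.12 beside 0.02 over all probe sets. Ezh2 stood highest with add-back, at 2527 against 2300 and 1991, a difference of 0.24 (SE 0.415, 95% interval -0.73 to 1.21). Cbx8 stood lowest there, at 168.8 against 186.3 and 194.4, a difference of -0.15 (SE 0.213, 95% interval -0.65 to 0.35). Cdkn2a stayed between its values on the other null-line arrays. Cdkn2b was lower with add-back, at 1182 against 1565 and 1741, a difference of -0.47 (SE 0.254). With 1 array, 12 of the 15 intervals lay within 2-fold.

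PREX2 constructs were compared with control vector and with each other. For truncated PREX2 against control vector, 3 against 2 arrays, 0 of 15 probe sets passed in limma, where 1 of 19090 (0.00524%) did, and 0 had an unadjusted p under 0.05 (2.82% of all). The changes ran from -0.26 to 0.32, with Ezh1 highest (SE 0.265, 95% interval -0.30 to 0.94) and Ezh2 lowest (SE 0.309, 95% interval -0.98 to 0.47), and all 15 intervals lay within 2-fold. Both of these changed sign without the GFP array, to -0.11 for Ezh1 and 0.16 for Ezh2. Of the 15, 2 did not overlap, against 13.8% of all. One was the brighter Bmi1 probe set (-0.18, SE 0.109), and the other Rnf2, at 2683, 2824 and 2719 with truncated PREX2 against 2374 and 2466 with control vector (0.18, SE 0.099, adjusted p = 0.844).

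For full-length PREX2 against control vector, 1 against 2 arrays, changes ran from -0.28 to 0.30, and for truncated against full-length PREX2, 3 against 1, from -0.51 (Cbx2) to 0.28 (Rnf2, SE 0.126, unadjusted p = 0.0557). In both, 0 of 15 probe sets passed in limma and 0 had an unadjusted p under 0.05, and 0% of all were called; 1.41% and 1.26% of all had an unadjusted p under 0.05. Groups did not overlap at 8 of 15 against control vector (48% of all) and at 4 of 15 against full-length PREX2 (36.9% of all). These comparisons share arrays: control vector enters the first pair of PREX2 comparisons and full-length PREX2 the second pair. The truncated constructs spanned a wide range at Ezh2, with K278* at 2367 beside E824* at 1289 and Q1430* at 1542.

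Other subunits of these complexes were taken from lists that leave out the 9 genes. Of 7 tested genes of the PRC2 list 1 rose and 1 fell between all arrays, and of 20 in the PRC1 list 4 rose and 3 fell, beside 19.5% higher and 18.1% lower over all probe sets. The medians of these lists were 0.14 and -0.01. In the null line without add-back against control vector 1 PRC2 gene rose and 0 fell, and 3 PRC1 genes rose and 2 fell, beside 10.7% and 8.94%. The PRC2 and PRC1 counts are thus near the background.

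Phf1, a PRC2 accessory protein that binds methylated histone H3 through its Tudor domain, rose in the null line. It read 334.7 with add-back and 321.1 and 398.2 without it, against 117.5 to 231.4 over the 6 wild-type-line arrays (0.95, SE 0.173, adjusted p = 0.00488). Mtf2, its paralogue, fell by 0.51 (SE 0.156, adjusted p = 0.0372) with overlapping lines, a call that ended without the GFP null array (-0.37), the add-back array (-0.55), or any 1 of the truncated-PREX2 arrays. Phf1 and Mtf2 thus went in opposite directions.

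In PRC1 the largest increases were in Auts2 and Scml2. Auts2, a subunit of a PRC1 variant known to activate genes, read 459.5 with add-back and 470.6 and 497.9 without it, against 109.2 to 276.9 in the wild-type line (1.21, SE 0.243, adjusted p = 0.00742). Scml2, an accessory protein of PRC1, read 240.4 to 244.5 against 70.3 to 140.5 (1.06, SE 0.173, adjusted p = 0.00305). Both groups of arrays stood apart from each other in each case.

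The largest decreases in the list were in Pcgf5, a relative of Bmi1, and in Cbx6, another chromodomain subunit. Pcgf5 read 1056 with add-back and 1035 and 989.7 without it, against 1601 to 2614 in the wild-type line (-0.91, SE 0.131, adjusted p = 0.00175). Cbx6 read 4170 with add-back and 4558 and 4318 without it, against 6261 to 9483 (-0.85, SE 0.115, adjusted p = 0.00130). Cbx6 and Cbx8 thus were both lower in the null line, while Cbx2 did not pass. The calls of Phf1, Auts2, Pcgf5 and Cbx6 between all arrays held in all 17 alternatives run, and that of Scml2 in all 16 in which it was tested. In the 2 against 2 comparison each of these 5 lost its call without either null-line array.

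**Figure D4:**
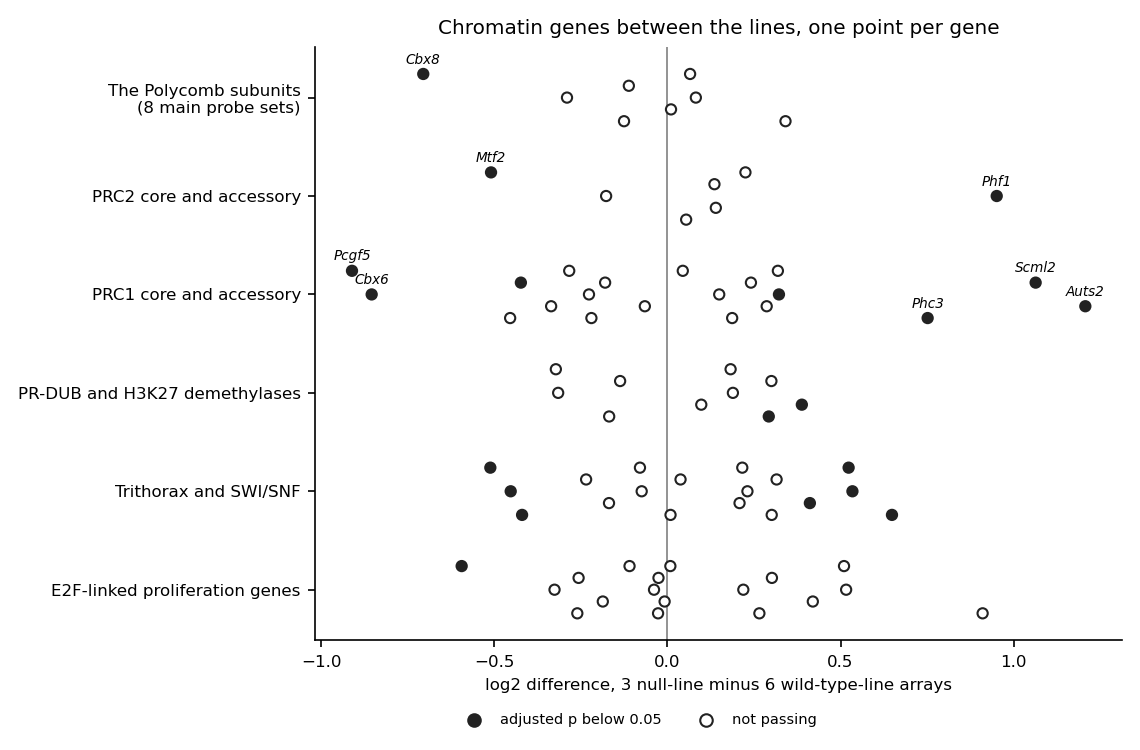
Log2 difference between the 3 null-line and 6 wild-type-line arrays for the main probe set of the 8 tested Polycomb genes and for the tested genes of 5 lists of chromatin and cell-cycle genes, 1 point per gene, filled where the adjusted p was below 0.05. Cbx8 (-0.71) is the only filled point in the top row, whereas the PRC1 list has 7, from Pcgf5 (-0.91) to Auts2 (1.21).

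Genes that remove Polycomb-linked histone marks, and Trithorax and SWI/SNF genes, were counted in the same way. Of 10 tested genes of the PR-DUB complex, which removes ubiquitin from histone H2A, and of the H3K27 demethylases, 2 rose and 0 fell between all arrays, beside 19.5% higher and 18.1% lower over all probe sets. Those that rose, a share near the background, were Kdm6a, a demethylase, by 0.39 (SE 0.119, adjusted p = 0.0381) and Bap1, the deubiquitinase, by 0.29 (SE 0.092, adjusted p = 0.0413). Both calls ended without any 1 of the 3 null-line arrays. Kdm6b, the demethylase linked to induction of Ink4a, was at -0.32 (SE 0.147, adjusted p = 0.124). Of 18 genes of Trithorax and SWI/SNF, 4 rose and 3 fell, again near the shares of all probe sets, with the methyltransferases Kmt2c (0.65) and Kmt2d (0.53) and the remodeller Smarca2 (0.52) higher and Arid1a (-0.51, SE 0.113, adjusted p = 0.0110) lower. Of these only Arid1a passed in all 17 alternatives; Kmt2c, Kmt2d and Smarca2 all lost their calls without the add-back array (0.55, 0.41 and 0.57).

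Of the 13 tested genes of the Ink4a locus and its known transcriptional regulators, 7 rose and 2 fell between all arrays, beside 19.5% and 18.1% of all probe sets. Those that rose include Cdkn2a and Cdkn2b, which define the contrast, reached the filter only through the null line and had to differ. The count of 7 is therefore not comparable with the share over all probe sets. Junb, an AP-1 subunit reported to raise Ink4a expression, read 724.9 with add-back and 481.2 and 631.2 without it, against 66.1 to 166 in the wild-type line (2.30, SE 0.242, adjusted p = 0.000450). Ets2, another reported activator, went the other way, at 557.8 with add-back and 477.7 and 476.1 without it, against 1194 to 1997 (-1.62, SE 0.189, adjusted p = 0.000704). Of 22 classical PRC2 target genes on the array, 17 were under the filter; of the 5 tested, the developmental regulators Tbx15 (-1.21) and Foxf1 (-0.62) fell and Gata6 (1.0) rose, the last call ending without any 1 of the null-line arrays or the Q1430* array.

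As a description of likeness, log2 signals were correlated over the 9 arrays after the mean of each line was subtracted, and the closest of all tested genes were listed. For Ezh2 these were Ltbp1, Prpf19 and Ehd1 (r from 0.993 to 0.996), for Eed Dkc1, Pcmt1 and Eif3b (0.991 to 0.994), for Suz12 Cavin2, Gins1 and Jade1 (0.993 to 0.994), and for Ezh1 Skap2, Plcxd2 and Vhl (0.995 to 0.998). For Bmi1 the closest were Ier5l, Nanos1 and Atp2c1 (0.974 to 0.980), and for Cbx2 Mllt1, Scai and Ddx39b (0.936 to 0.970). The closest genes to Cbx8 were Cblc, Zfp148 and Cald1 (0.927 to 0.943), and those to Rnf2 were Fut10, Sema3e and Traf5 (0.941 to 0.959). Being the highest among all tested genes, these r values are high by selection. The values come from 9 arrays that share the GFP and K278* pair, and no p is given.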

How the data were processed

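The authors deposited intensity values per probe set, which the submitters' processing notes name as MAS5 output, without version or target. They are linear, with a mean of 500 on every array once 2% was trimmed at both ends, while the median lay between 56.4 and 68.9. Controls (64 of 45101 probe sets) were left out. Genes were named from the platform annotation (34945 probe sets with 1 symbol, 932 with several, 9160 with none), and 34741 matched the RefSeq table of GRCm38.p6 by gene identifier. The 27 probe sets of the 9 genes each carried 1 symbol.

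Signals were transformed as log2(signal + 25), so differences are on that scale and understate those of dim probe sets. Probe sets with a mean of at least 100 over the 9 arrays (19090, 10177 genes) were fitted by group (5 groups, residual df 4) with an intensity trend in limma 3.58.1 under R 4.3.3; p-values are two-sided, adjusted by the Benjamini-Hochberg method over all tested probe sets, threshold 0.05. A lone array takes its spread from the other groups. The comparison of the lines weighted the group means by arrays. The precision is limited by the number of arrays. Where a gene of a list had several probe sets, the brightest was used. Named were all members, Cdkn2a, Cdkn2b and Kmt5b, up to 4 passing genes per list with the largest changes, and the 3 closest genes per tested member. Kdm6b, Thy1, Prrx1, Tubb3, Tek and Krt19 were chosen after their values were seen. Alternatives were another offset (5 or 100), another filter (none, or 200), quantile normalization, a fit without the trend, a fit of only the groups compared, each array left out, 2 line means (residual df 7) and, added once the values were seen, leaving out GFP and K278* of the wild-type line. The procedure was tested on simulated data. The members and lists were chosen with earlier results of these data known.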

Additional observations from a re-analysis of the deposited data

Results flagged for a closer look

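Dixon's test was applied to the 6 wild-type-line arrays for each of the 15 tested Polycomb probe sets and for Cdkn2a and Cdkn2b, 17 sets in all, and 1 set exceeded the critical value of 0.625. Chance alone flags about 1 in 20 such sets. It was Cdkn2a on the wild-type GFP array, at 15.9 against 0.925 to 6.25 on the other 5 arrays, with a gap of 0.645 of the range; all these values lie below the median signal of every array.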

How the results depend on the processing

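No paired analysis was possible because the labels carry no replicate numbers. Of 1467 recomputed differences 1396 kept their direction and side of the threshold, 7 lost the call, 6 gained one and 58 changed sign, none of these passing (lowest adjusted p = 0.0875). The count of member probe sets called for the null line against control vector was 1, and it was 0 without the filter on dim probe sets, 0 when only the groups compared were fitted, and 0 to 1 with single arrays left out; it was 3 without GFP and K278*, where the count for all arrays of the lines was 5. The cause was not tested. That pair was chosen after the values were seen, so the counts without it are no test. The 7 lost calls were Cbx8 in that comparison, and the 6 gained were Ezh2, the second Rnf2 probe set, Eed and Ezh1 without GFP and K278*. Probe sets of a gene are numbered from the brightest, which has no number. Sign changes are given as the range of the log2 difference with single arrays left out. For null line against control vector these were Ezh2 (-0.32 to 0.51), Eed (-0.27 to 0.15), Ezh1 (-0.40 to 0.47) and Suz12 (-0.42 to 0.10). For add-back against null line these were Suz12 probe set 6 (-0.64 to 0.0057), Bmi1 (-0.0094 to 0.020), Suz12 (-0.051 to 0.22), Suz12 probe set 5 (-0.15 to 0.39) and Eed (-0.017 to 0.13). For all arrays of the lines these were Suz12 (-0.048 to 0.092) and Suz12 probe set 4 (-0.25 to 0.029). For truncated PREX2 against control vector these were Ezh2 (-0.67 to 0.16), Suz12 (-0.50 to 0.024), Suz12 probe set 2 (-0.25 to 0.083), Eed (-0.35 to 0.067), Ezh1 (-0.11 to 0.76), Suz12 probe set 3 (-0.24 to 0.0059), Cbx8 (-0.24 to 0.077), Cbx2 (-0.47 to 0.014) and Suz12 probe set 5 (-0.31 to 0.0030). For full-length PREX2 against control vector these were Ezh2 (-0.67 to 0.16), Cbx8 (-0.091 to 0.23), Suz12 (-0.39 to 0.13), Ezh1 (-0.27 to 0.60), Suz12 probe set 3 (-0.17 to 0.065), Suz12 probe set 6 (-0.10 to 0.14) and Suz12 probe set 2 (-0.13 to 0.14). For truncated against full-length PREX2 these were Suz12 probe set 5 (-0.046 to 0.26), Eed (-0.058 to 0.16), Bmi1 probe set 2 (-0.033 to 0.040), Suz12 probe set 4 (-0.036 to 0.16), Ezh2 (-0.25 to 0.18), Suz12 probe set 2 (-0.25 to 0.080), Suz12 probe set 3 (-0.18 to 0.052) and Bmi1 (-0.063 to 0.017). Without GFP and K278* the values of opposite sign were Suz12 (null line against control vector, 0.10), Eed (null line against control vector, 0.15), Ezh1 (null line against control vector, -0.40), Ezh2 (full-length PREX2 against control vector, 0.16), Cbx8 (full-length PREX2 against control vector, -0.091), Suz12 (full-length PREX2 against control vector, 0.13), Ezh1 (full-length PREX2 against control vector, -0.27), Suz12 probe set 3 (full-length PREX2 against control vector, 0.065), Suz12 probe set 5 (truncated against full-length PREX2, -0.046), Eed (truncated against full-length PREX2, -0.058), Bmi1 probe set 2 (truncated against full-length PREX2, 0.040) and Suz12 probe set 4 (truncated against full-length PREX2, -0.036). Under quantile normalization one was Ezh1 (null line against control vector, -0.065). With an offset of 100 one was Ezh2 (truncated against full-length PREX2, 4e-04). Leaving out an array was not possible where a side has only 1, and the comparison of all arrays already uses every group. Precision is limited by the number of arrays.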
